A study of Homo sapiens with 9 samples.

Results

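The BCL2 family of apoptosis regulators was followed through 10 genes listed by name: the anti-apoptotic BCL2L1, MCL1 and BCL2A1, the BH3-only BCL2L11, PMAIP1, BBC3, BID and BIK, and the effectors BAX and BAK1. A probe set, the group of short probes that reports 1 transcript on the array, belonged to a member when its annotation named that gene and no other. This gave 27 probe sets for 9 of the 10 members, among 54675 on the array. BBC3 had no value, because its 1 probe set also names 2 microRNA genes. BIK had 1 probe set, which lay under the filter on dim probe sets and was not tested. The other 8 members, with 26 probe sets, are among the 13948 genes that were tested.

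BCL2 family proteins decide whether the outer mitochondrial membrane stays intact. The effectors BAX and BAK form pores in it and let cytochrome c out, the anti-apoptotic proteins hold them in check, and the BH3-only proteins answer to stress by binding the anti-apoptotic proteins or by activating the effectors directly. NOXA, the product of PMAIP1, binds mainly MCL1 and the BCL2A1 protein, while BIM, the product of BCL2L11, binds all the anti-apoptotic members. Pancreatic adenocarcinoma cells are known to depend mostly on MCL1 and on BCL-XL, the product of BCL2L1.

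All 9 samples were PANC-1, an established human pancreatic adenocarcinoma line, and each was hybridised to 1 Affymetrix HG-U133 Plus 2.0 array. Cells were seeded in medium with 10% serum, moved after a day to a medium with 1% charcoal-filtered serum, and kept there for 72 hours with the solvent DMSO alone, with 0.1 µM TVB-3166 or with 1.0 µM TVB-3166, an inhibitor of fatty acid synthase (FASN). There were 3 arrays per group, and all 3 groups shared the line, the low-serum medium and DMSO as the solvent. The DMSO concentration is given as 0.05% in the source names of the 3 DMSO arrays. It is given as 0.5% in the descriptions of DMSO replicates 2 and 3 and of every treated array. Whether DMSO and treated arrays had the same concentration is thus not known. A difference in it could not be told apart from the treatment. Titles set the groups, since other fields disagree with them for some arrays: 0.1 µM stands as the treatment of the 1.0 µM arrays, and DMSO as that of 0.1 µM replicate 1 in its description. The question the design addresses is how blocking fatty acid synthesis changes transcript levels in this 1 tumour line. Triplicate treatments are stated, but nothing says that the replicates were separate cultures, so p-values measure the spread between these samples, which may be technical. Only RNA was measured here, and protein and cell death were not.

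The deposited values are MAS5 signals, linear intensities scaled so that every array has the same trimmed mean of 500.1, so a change in total RNA per cell is not visible. Within groups the arrays correlated at 0.9806 to 0.9899 on the log2 scale. The hybridisation spikes, control RNAs added to each sample, parted the arrays into 4 with more spike signal (DMSO replicate 2, 0.1 µM replicates 1 and 3, and 1.0 µM replicate 2) and 5 with less, called the higher and the lower spike set. The labels do not say what this split marks. Deviations from the group means were correlated between arrays of different groups. The correlations were −0.17 to 0.27 for arrays of the same spike set and −0.34 to 0.20 for arrays of different sets. Differences within each set are given for called members and member probe sets whose call was lost in the lower set alone or whose difference moved by over 1.5 times between the sets. The log2 ratio of 3′ to 5′ control probe sets, a measure of RNA quality, overlapped between all groups for ACTB, at 0.0954 to 0.237 over all arrays. For GAPDH it was −0.195 to −0.0975 under DMSO, −0.117 to −0.0958 at 0.1 µM and −0.222 to −0.121 at 1.0 µM. The GAPDH ratios thus overlapped between DMSO and each dose, but not between the doses. The epithelial markers KRT8, KRT18, KRT19, KRT7, EPCAM and the mesenchymal VIM, which PANC-1 is known to carry, were all above the filter (6 of 6). BCL2A1 is best known from blood cells, and 3 of 7 blood and immune markers on the array were above the filter. Limma called 0 of the 3 in any comparison, with 1 at an unadjusted p under 0.05 at 1.0 µM (ITGAM, 0.54 ± 0.21, adjusted p = 0.0859). The summed signal of all 7 was 220 to 387 under DMSO, 312 to 378 at 0.1 µM and 280 to 357 at 1.0 µM, and PTPRC, the pan-leukocyte marker, stayed between 2.6 and 39.7.

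Promoters are shown for the 3 members whose difference at 1.0 µM had the smallest p-values, BCL2A1, PMAIP1 and BCL2L11, as the 250 bases before the annotated start in RefSeq (build GRCh38.p14), read 5′ to 3′ on the gene's strand. Capitals mark the only match to any of 8 short motifs that were searched on both strands. The motifs were picked after the expression values were known, for factors that are known to act on these genes.
BCL2A1, chr15:79971197-79971446, minus strand: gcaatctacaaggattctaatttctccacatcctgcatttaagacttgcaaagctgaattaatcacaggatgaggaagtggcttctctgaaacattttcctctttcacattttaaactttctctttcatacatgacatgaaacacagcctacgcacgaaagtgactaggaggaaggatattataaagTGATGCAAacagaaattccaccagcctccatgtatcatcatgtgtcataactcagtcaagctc
PMAIP1, chr18:59899746-59899995, plus strand: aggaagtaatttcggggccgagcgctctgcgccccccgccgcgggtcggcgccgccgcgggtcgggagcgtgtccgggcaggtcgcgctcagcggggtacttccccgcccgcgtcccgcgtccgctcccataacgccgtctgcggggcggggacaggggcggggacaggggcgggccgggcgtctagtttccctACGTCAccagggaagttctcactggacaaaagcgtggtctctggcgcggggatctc
BCL2L11, chr2:111120664-111120913, plus strand: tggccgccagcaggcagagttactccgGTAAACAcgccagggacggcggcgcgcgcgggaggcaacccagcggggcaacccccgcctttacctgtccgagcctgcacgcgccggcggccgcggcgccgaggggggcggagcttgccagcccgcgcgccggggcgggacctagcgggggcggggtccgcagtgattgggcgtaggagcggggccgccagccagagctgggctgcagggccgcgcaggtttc

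The BCL2A1 promoter carries TGATGCAA 63 to 56 bases before the start, a match to the composite C/EBP-ATF element TGATGNAA that 3.19% of 27303 RefSeq promoters of this length hold. In PMAIP1 the match is the CRE half-site TGACGT, the core of the site for CREB and ATF proteins, which appears as ACGTCA because it lies on the opposite strand, 56 to 51 bases before the start; 7.42% of promoters hold it. In BCL2L11 it is the FOXO motif GTAAACA, 223 to 217 bases before the start, which 2.98% of promoters hold. The other motifs were AP-1 (TGANTCA, in 6.6% of promoters), the full CRE (TGACGTCA, 1.77%, which contains the half-site), E2F (TTTNGCGC, 1.54%), the E-box (CACGTG, 6.49%) and NF-kB (5.05%). Of the 8 members with a promoter in the table, BAX has 4 E-boxes, BBC3 an AP-1 motif and an E-box, and BCL2L1 an E2F motif, while BID and BAK1 have none of the 8. On the minus strand, BBC3 starts at base 47232860 of chromosome 19 and BID at base 17774665 of chromosome 22. Their windows, 47232668 to 47232917 and 17774470 to 17774719, thus lie mostly inside the genes as annotated. The full CRE and the NF-kB motif were found in 0 of the 8, which says only that these letters are not in this window.

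At 1.0 µM against DMSO, BCL2A1, PMAIP1, BCL2L1 and BAX rose, BCL2L11 fell, and MCL1, BID and BAK1 were not called. A call means an adjusted p under 0.05 from limma's moderated test over all tested genes, each gene read from its brightest probe set. The 5 of 8 tested members called compare with 23.2% of all tested genes, the 4 higher with 12.3% and the 1 lower with 11.0%. The members' median log2 change was 0.29, against 0.0063 for all tested genes, on the log2(signal + 16) scale used for every change here. The group ranges did not overlap for 5 of 8 members, against 37.2% of all genes. Without DMSO replicate 1, DMSO replicate 2 or 1.0 µM replicate 2, the count of members called dropped to 3, BCL2A1, PMAIP1 and BCL2L11 in each case.

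At 0.1 µM against DMSO, BCL2A1 and PMAIP1 rose and BCL2L11 fell, which is 3 of 8 members against 12.0% of all tested genes (2 higher against 6.89%, 1 lower against 5.11%). The members' median log2 change was 0.28 and that of all genes −0.0064, and the groups did not overlap for 6 of 8 members, against 30.0% of genes. Without 1.0 µM replicate 2, whose values enter the shared estimate of spread, 5 members were called at this dose. Both doses are measured against the same 3 DMSO arrays, so their values are given side by side and not counted as separate evidence.

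**Figure D1:**
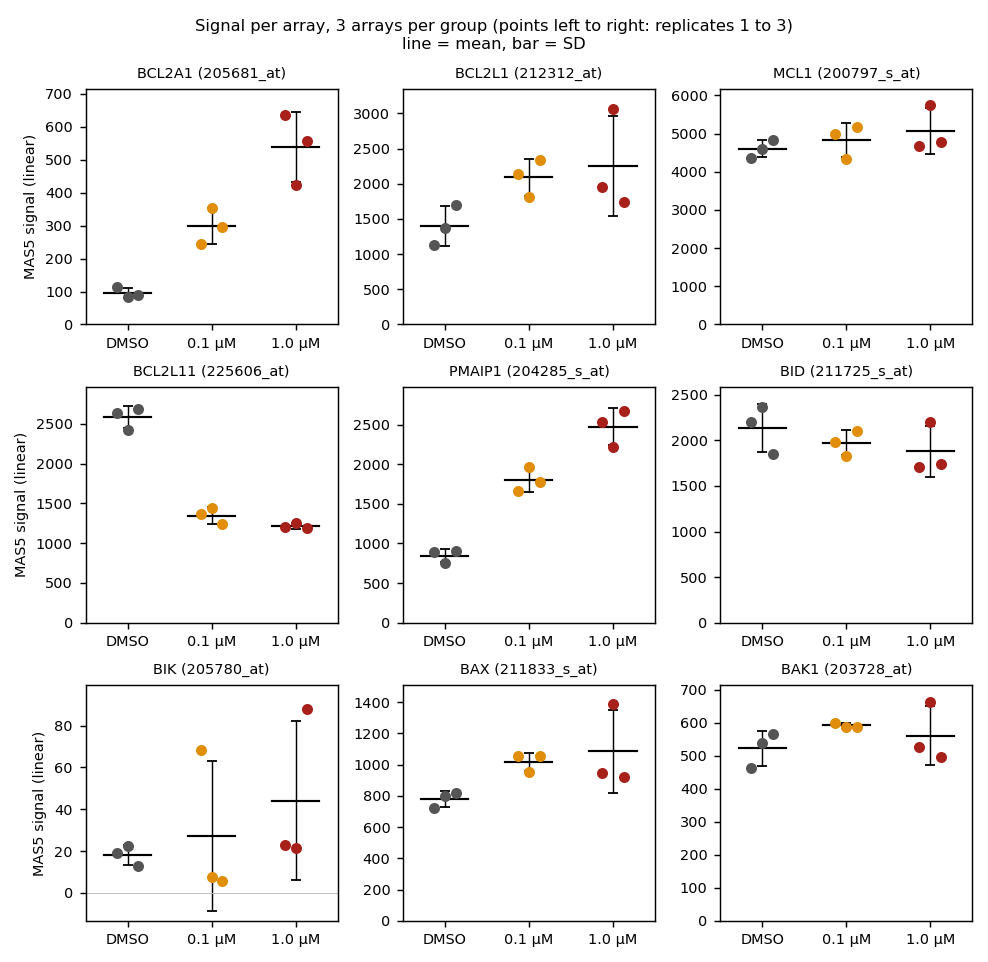
MAS5 signal (linear scale) of the brightest probe set of each of the 9 measured members on every array, with points for replicates 1 to 3 from left to right, a line at the group mean and a bar for the SD. BCL2A1 and PMAIP1 step up from DMSO to 0.1 µM to 1.0 µM with no overlap, BCL2L11 lies at 2427 to 2684 under DMSO and at 1192 to 1441 in all 6 treated arrays, and 1.0 µM replicate 2 is the highest point for BCL2L1, MCL1, BAX and BAK1.

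BCL2A1 encodes BFL-1 (also called A1), an anti-apoptotic protein known as a target of NF-kB in lymphoid and myeloid cells. Its 1 probe set, 205681_at, read 113, 83.6 and 88.3 in the 3 DMSO arrays, 244, 354 and 297 at 0.1 µM, and 637, 424 and 557 at 1.0 µM. The 3 groups did not overlap at any step, and the DMSO signals were near the dim end of the tested range, which begins at a signal of 38.95. Mean signals were 94.9 ± 15.7 (SD, n = 3), 298 ± 54.6 and 539 ± 107, a ratio of 3.14 at the lower and 5.68 at the higher dose over DMSO. The log2 change was 1.496 ± 0.19 (SE) at 0.1 µM (limma adjusted p = 0.000315) and 2.31 ± 0.19 at 1.0 µM (5.35e-06), the largest change among the tested members in either comparison. The 1.0 µM difference was 2.40 within the lower spike set and 2.14 within the higher. In a bulk culture a change in the share of cells with a transcript and a change in RNA per cell cannot be told apart, here and in every result that follows.

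BCL2L1 encodes BCL-XL, which keeps BAX and BAK inactive in epithelial cells. Its brightest probe set, 212312_at, read 1133, 1377 and 1702 under DMSO, 2131, 1805 and 2335 at 0.1 µM, and 1947, 3061 and 1741 at 1.0 µM. Every treated array was above every DMSO array, but 1.0 µM replicate 2 stood well above the other two of its group, and 1.0 µM replicate 3 was only just above DMSO replicate 3. The log2 change at 1.0 µM was 0.65 ± 0.20 and was called (limma adjusted p = 0.0339), and at 0.1 µM it was 0.58 ± 0.20 and was not (0.0835, 95% interval 0.15 to 1.01). The call at 1.0 µM was lost without 1.0 µM replicate 2 (0.41, adjusted p = 0.0874), without DMSO replicate 1 (0.51, 0.124) and without DMSO replicate 2 (0.65, 0.082), while without 1.0 µM replicate 2 the change at 0.1 µM became a call (0.0184). Among arrays of the lower spike set the 1.0 µM difference was 0.40, and it was 1.14 among those of the higher, where 1.0 µM replicate 2 is the only array of its dose.

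The other BCL2L1 probe sets also had positive changes at both doses, although 231228_at turned negative without DMSO replicate 1 (−0.16 at 1.0 µM and −0.032 at 0.1 µM). At 1.0 µM, 3 of 4 were called higher in the fit over all 32768 probe sets above the filter, and in that fit 206665_s_at changed most, by 1.09 ± 0.22 (limma adjusted p = 0.00423). It read 195, 186 and 316 under DMSO, 427, 345 and 441 at 0.1 µM, and 413, 664 and 449 at 1.0 µM, with no treated array as low as any DMSO array. It was also the 1 of 4 called at 0.1 µM (0.79 ± 0.22, 0.0431). Its call at 1.0 µM was kept with each of the 9 arrays left out in turn, but was lost in the lower spike set alone (0.75, adjusted p = 0.07, against a difference of 1.75 within the higher set). The call of 212312_at in this fit was kept in 3 of the 9 and that of 215037_s_at in 4. The call of 212312_at was also lost here without 0.1 µM replicate 1 (0.65, 0.0564) or 3 (0.0559) and 1.0 µM replicate 1 (0.73, 0.0562), and that of 215037_s_at without DMSO replicate 1 (0.55) or 2 (0.76), 0.1 µM replicate 1 (0.75) and 1.0 µM replicate 1 (0.85) or 2 (0.52). The latter differed by 0.54 within the lower spike set, where it was not called (0.191), and by 1.17 within the higher. The call of 206665_s_at at 0.1 µM was kept in 4 of the 9, being lost without DMSO replicate 1 (0.69) or 2 (0.66), 0.1 µM replicate 1 (0.75) or 3 (0.72), and 1.0 µM replicate 3 (0.79, adjusted p = 0.0583), and in the lower spike set alone (0.45, 0.532, against 1.15 within the higher). The remaining probe set, 231228_at, was dim, and its groups overlapped at both doses.

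MCL1 encodes a short-lived anti-apoptotic protein that NOXA and BIM bind, and its probe sets gave different readings. The brightest, 200797_s_at, read 4373, 4599 and 4820 under DMSO, 4978, 4334 and 5168 at 0.1 µM, and 4662, 5751 and 4783 at 1.0 µM. The 3 groups overlapped, and the log2 change of 0.13 ± 0.11 at 1.0 µM was not called (limma adjusted p = 0.427, 95% interval −0.10 to 0.37). At 0.1 µM it was 0.067 (0.762, interval −0.17 to 0.30).

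A second bright MCL1 probe set, 200798_x_at, read 2314, 1891 and 2307 under DMSO, 2860, 2921 and 3089 at 0.1 µM, and 3572, 3384 and 3564 at 1.0 µM. Here the 3 groups did not overlap at any step, and the log2 change was 0.69 ± 0.10 at 1.0 µM (limma adjusted p = 0.000498) and 0.45 ± 0.10 at 0.1 µM (0.0163). The 1.0 µM call was kept with each of the 9 arrays left out, and the 0.1 µM call was lost without DMSO replicate 2 (0.35, 0.0604) or 0.1 µM replicate 3 (0.42, 0.0892). At 0.1 µM it differed by 0.34 within the lower spike set, where it was not called (0.273), and by 0.65 within the higher. The suffixes _s_at and _x_at mark probe sets that can also bind other transcripts, so which of the 2 reads MCL1 more purely was not tested. The suffix _s_at is also carried by every PMAIP1 and BAX probe set. Among others, 206665_s_at and 215037_s_at of BCL2L1 and 1553096_s_at of BCL2L11 carry it too. How purely these read their genes was not tested either.

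Across all 6 MCL1 probe sets, the change at 1.0 µM ranged from 0.13 to 0.73, with 2 called higher and 0 lower. The second call, 214056_at (0.73 ± 0.22, limma adjusted p = 0.0383), was kept in 4 of the 9 fits with 1 array left out. The arrays whose omission ended the call were DMSO replicates 2 (0.73, adjusted p = 0.0877) and 3 (0.57, 0.134), 1.0 µM replicates 1 (0.53, 0.152) and 3 (0.75, 0.0901), and 0.1 µM replicate 3 (0.73, 0.0515). Within the lower spike set it differed by 0.92, without a call (0.052), and within the higher by 0.36. Probe set 200796_s_at (0.34 ± 0.12, 0.065) became a call without DMSO replicate 3 (0.40, 0.0452). At 0.1 µM, 1 of 6 was called, and 214057_at and 227175_at lay on the other side of 0, at −0.41 and −0.33, neither of them called; 214056_at joined them without DMSO replicate 3 (−0.052) or 0.1 µM replicate 2 (−0.033). These 2 dim probe sets read 84.5 to 146 and 70.6 to 90.5 at 0.1 µM, below their 1.0 µM readings of 160 to 208 and 113 to 204, and between the doses they differed by 0.69 and 0.77 without a call. When the mean of the 6 probe sets stood for the gene, MCL1 at 1.0 µM became a call (0.44, adjusted p = 0.00682).

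PMAIP1 encodes NOXA, a BH3-only protein known to be induced by stress, in part through ATF4. Probe set 204285_s_at read 888, 747 and 905 under DMSO, 1666, 1959.5 and 1774.5 at 0.1 µM, and 2532.5, 2218 and 2675 at 1.0 µM. The lowest array of each step lay above the highest array of the step before. Mean signals were 846 ± 86.7 (SD, n = 3), 1800.1 ± 148 and 2475 ± 234, which are 2.13 and 2.92 times DMSO for the treated groups. The log2 change was 1.08 ± 0.11 at 0.1 µM (limma adjusted p = 6.26e-05) and 1.53 ± 0.11 at 1.0 µM (2.02e-06), which placed PMAIP1 66th of 13948 genes by p-value at the higher dose.

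The second PMAIP1 probe set, 204286_s_at, read 397, 411 and 265 under DMSO, 672, 1149 and 906 at 0.1 µM, and 1430.5, 904 and 1424 at 1.0 µM. Both doses lay above DMSO without overlap, but they overlapped each other. Its log2 changes of 1.30 ± 0.23 and 1.76 ± 0.23 were called at both doses (limma adjusted p = 0.00383 and 0.00023). Within the lower spike set 204286_s_at differed by 1.77 and 2.08 at the lower and higher dose, and within the higher set by 0.90 and 1.11. All 4 of these PMAIP1 calls were kept with each of the 9 arrays left out and in the lower spike set alone.

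BCL2L11 encodes BIM, a BH3-only protein whose transcription FOXO factors are known to raise. Probe set 225606_at read 2634, 2427 and 2684 under DMSO, 1359, 1441 and 1236.5 at 0.1 µM, and 1198, 1255 and 1192 at 1.0 µM. All 6 treated arrays lay far below the DMSO arrays, and the treated groups overlapped each other. The mean fell from 2582 ± 136 (SD, n = 3) to 1346 ± 103 and 1215 ± 34.8, ratios of 0.521 and 0.471. The log2 change was −0.93 ± 0.09 at 0.1 µM (limma adjusted p = 4.05e-05) and −1.08 ± 0.09 at 1.0 µM (5.83e-06).

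All 7 BCL2L11 probe sets had negative changes at both doses, and 4 of 7 were called lower at 1.0 µM and 3 of 7 at 0.1 µM. At 1.0 µM the range was −1.08 to −0.19, and for all 7 the 1.0 µM arrays lay below the lowest DMSO reading, as they did for 16.9% of all probe sets. Probe set 1558143_a_at read 1007, 855 and 1514.5 under DMSO, 482, 580.2 and 527 at 0.1 µM, and 586, 602 and 580.1 at 1.0 µM. At the small end, 1553088_a_at read 229, 202 and 205 under DMSO, 166, 163 and 229 at 0.1 µM, and 172, 185 and 194 at 1.0 µM. It changed by −0.19 ± 0.16 at 1.0 µM, which was not called (limma adjusted p = 0.49, 95% interval −0.55 to 0.16).

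The difference between that probe set and 225606_at was itself fitted on every array, and the gap of 0.88 ± 0.18 at 1.0 µM missed the threshold (limma adjusted p = 0.064 over 12925 probe set pairs, 95% interval 0.47 to 1.30). Over the 18 member pairs, 0 passed in any of the 3 comparisons, where 1.01%, 0.155% and 0.00% of all pairs did at 1.0 µM, at 0.1 µM and between the doses. An unadjusted limma p under 0.05 was seen for 5, 5 and 2 member pairs in the same order. The largest p among these ranked 1325th, 1125th and 517th of the 12925 pairs. The weakest of the 4 calls at 1.0 µM, 1553096_s_at (−0.42 ± 0.14, adjusted p = 0.0499), was kept in 0 of the 9 fits with an array left out; without DMSO replicate 3 it was −0.31 (0.151) and without 1.0 µM replicate 2 it was −0.32 (0.138). Within the lower spike set it was not called either (−0.35, 0.213), and within the higher it was −0.56. The other 3 calls at 1.0 µM and all 3 at 0.1 µM were kept in all 9. In the lower spike set alone, however, 2 of the 3 calls at 0.1 µM were lost, 1555372_at (−1.07, adjusted p = 0.0637) and 1558143_a_at (−1.07, 0.0966), which differed by −0.90 and −0.75 within the higher set. At 1.0 µM 1558143_a_at differed by −1.06 within the lower set and by −0.50 within the higher.

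**Figure D2:**
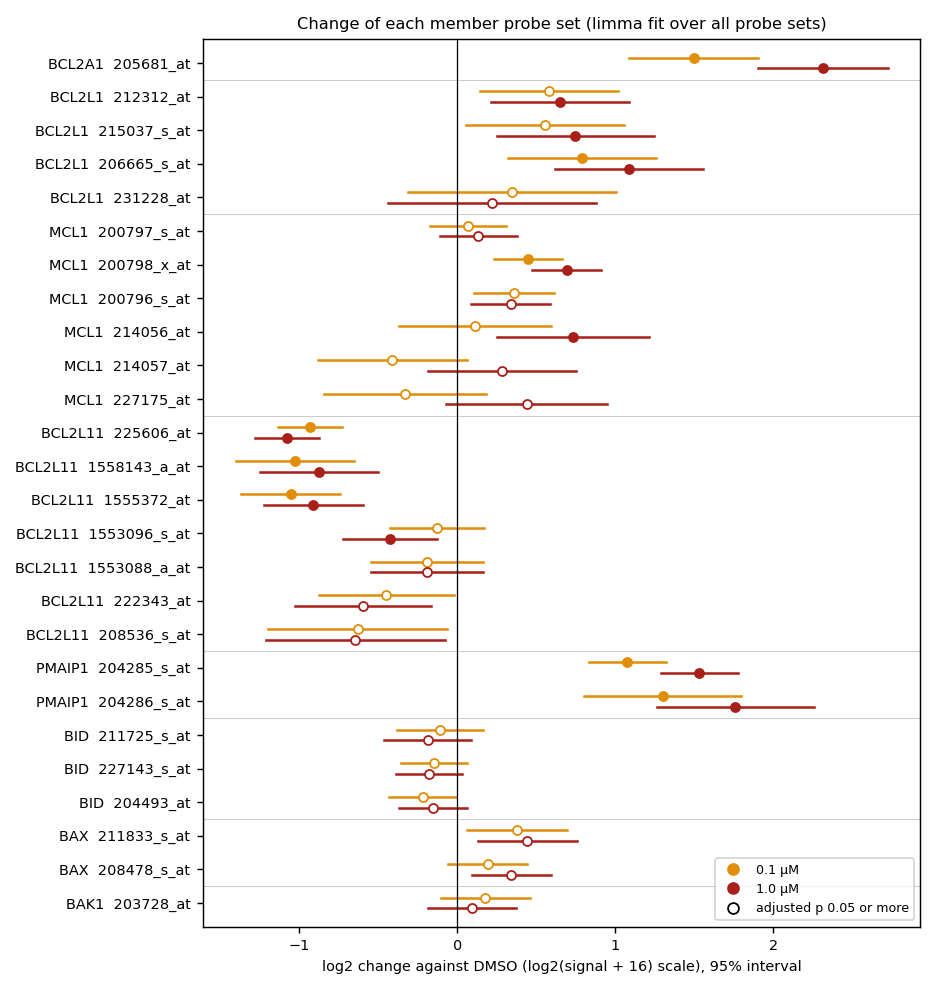
Log2 change against DMSO of the 26 tested member probe sets at 0.1 µM (orange) and 1.0 µM (red), with limma 95% intervals and filled points for an adjusted p under 0.05. At 1.0 µM 8 probe sets are called higher and 4 lower; all 7 BCL2L11 probe sets lie left of 0, and the 6 MCL1 probe sets spread from 0.13 to 0.73 at that dose.

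In all, 8 of 26 member probe sets were called higher and 4 lower at 1.0 µM, where 17.6% of probe sets were called (8.94% higher, 8.68% lower). At 0.1 µM 5 were called higher and 3 lower, against 8.25% of probe sets called (4.59% higher, 3.66% lower).

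BID, which caspase-8 cleaves to carry the death receptor signal to mitochondria, was not called. Its brightest probe set, 211725_s_at, read 2202, 2362 and 1849 under DMSO, 1983, 1830.3 and 2105 at 0.1 µM, and 1703, 2202 and 1736 at 1.0 µM. The groups overlapped, with a log2 change of −0.19 ± 0.12 at 1.0 µM (limma adjusted p = 0.325, 95% interval −0.45 to 0.08) and −0.11 ± 0.12 at 0.1 µM (0.641). All 3 BID probe sets had negative changes at both doses, between −0.22 and −0.11, and 0 of 3 were called at either dose.

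BIK, a BH3-only protein of the endoplasmic reticulum, read 19.2, 22.5 and 12.7 under DMSO, 68.5, 7.5 and 5.7 at 0.1 µM, and 22.7, 21.6 and 88.2 at 1.0 µM. A single array carried the mean of each treated group, and with these signals no level was compared. BBC3 encodes PUMA, a BH3-only protein, and is the member without a value.

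BAX, the effector that moves from the cytosol to mitochondria, read 721, 799.6 and 821 under DMSO, 1054, 952 and 1052 at 0.1 µM, and 947, 1390.3 and 919 at 1.0 µM on 211833_s_at. Every treated array lay above every DMSO array, and 1.0 µM replicate 2 was again far above the rest. The log2 change of 0.44 ± 0.14 at 1.0 µM was called (limma adjusted p = 0.0431), and 0.38 ± 0.14 at 0.1 µM was not (0.117, 95% interval 0.07 to 0.69). The 1.0 µM call was lost without 1.0 µM replicate 2 (0.25, adjusted p = 0.104), any of the DMSO replicates 1, 2 and 3 (0.128, 0.0832 and 0.0663), or 0.1 µM replicate 1 or 3 (0.0578 and 0.0626), and the 0.1 µM change became a call without 1.0 µM replicate 2 (0.0194). The difference at 1.0 µM was 0.27 within the lower spike set and 0.79 within the higher. In the fit over all probe sets neither BAX probe set was called at 1.0 µM (adjusted p = 0.0534 and 0.0605). There 211833_s_at became a call without 1.0 µM replicate 3 (0.55, 0.0419) and 208478_s_at without 1.0 µM replicate 1 (0.42, 0.0498).

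BAK1, the effector that sits in the mitochondrial membrane, read 464, 538 and 566 under DMSO, 600.4, 587 and 587 at 0.1 µM, and 525, 663 and 495 at 1.0 µM. The 0.1 µM arrays lay just above all DMSO arrays, and the 1.0 µM arrays spread over both groups. Neither change was called, at 0.18 ± 0.13 for 0.1 µM (limma adjusted p = 0.439, 95% interval −0.10 to 0.46) and 0.093 ± 0.13 for 1.0 µM (0.674, −0.19 to 0.37).

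**Figure D3:**
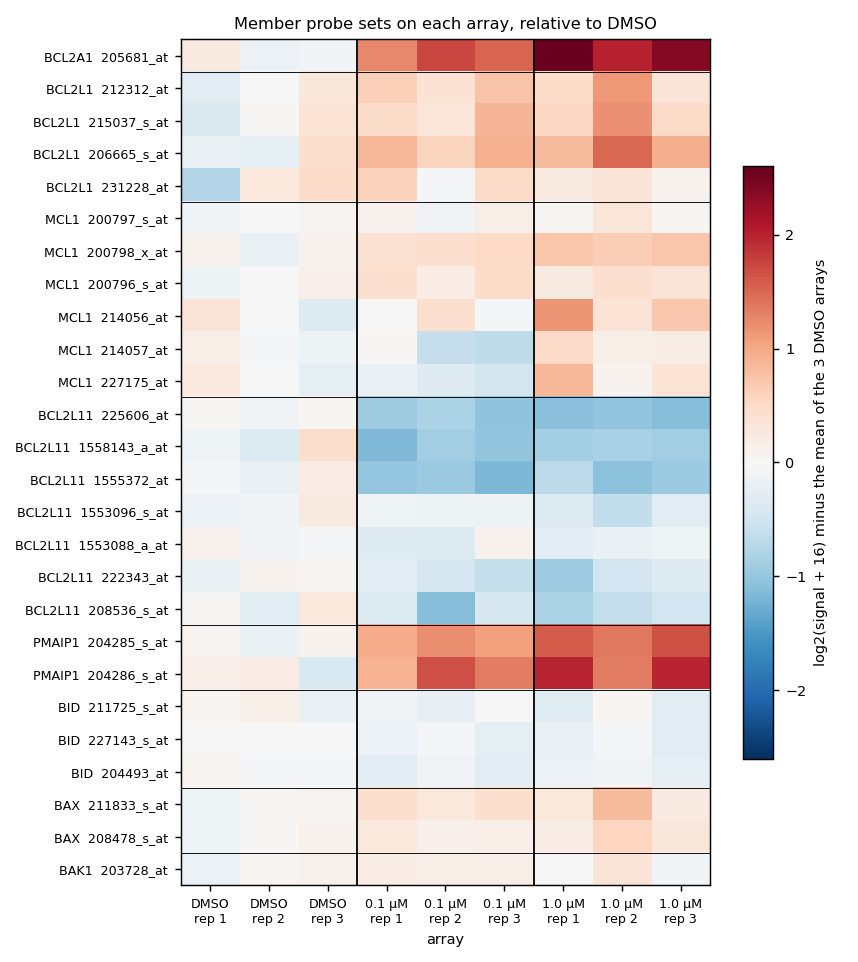
Each of the 26 tested member probe sets on each of the 9 arrays, as log2(signal + 16) minus the mean of the 3 DMSO arrays (red higher, blue lower). BCL2A1 and PMAIP1 are red across all 6 treated arrays, and the 7 BCL2L11 probe sets are blue there except 1553088_a_at in 0.1 µM replicate 3 (0.10), while the 1.0 µM replicate 2 column is the reddest of its dose for BCL2L1, BAX and BAK1.

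Between the doses, 0 of 8 members were called, against 0.817% of all tested genes, and 2 of 8 had an unadjusted limma p under 0.05, against 12.4% of genes. Those 2 were BCL2A1 and PMAIP1, whose 1.0 µM arrays all lay above their 0.1 µM arrays; 18.5% of genes had groups that did not overlap in this comparison, 9.73% with 1.0 µM higher. BCL2A1 differed by 0.82 ± 0.19 (limma adjusted p = 0.0761, 95% interval 0.40 to 1.23) and PMAIP1 by 0.45 ± 0.11 (0.0876, interval 0.22 to 0.69). Without 1.0 µM replicate 2, in which both genes were lowest for their dose, the adjusted p became 0.0383 for BCL2A1 (0.98) and 0.0474 for PMAIP1 (0.53). BCL2L11 differed by −0.14 (0.574, interval −0.34 to 0.05), BCL2L1 by 0.069 (0.928, −0.36 to 0.50) and BAX by 0.065 (0.907, −0.25 to 0.38). The members' median was 0.066 and that of all genes 0.005, and 0 of the 26 member probe sets were called, against 0.281% of probe sets. An unadjusted limma p under 0.05 was seen for 7 of the 26. The largest of these 7, 0.0494 for 1553096_s_at, ranked 3506th among all 32768 probe sets.

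The wider apoptosis machinery was read from 6 gene lists, against the 23.2% of genes called at 1.0 µM and 12.0% at 0.1 µM. Of 22 calls in these lists at 1.0 µM, 13 were kept with each of the 9 arrays left out, and of 13 at 0.1 µM, 9 were. Fitted on the lower spike set, FAS, APAF1, PARP1, VDAC3 and USP9X lost their calls at 1.0 µM, as did BCL2L13, BNIP3, APAF1, CASP9, RELB and TNFRSF10A at 0.1 µM, and CASP10 became a rise at 1.0 µM. Of the 64 tested genes in the 6 lists, limma called 0 between the doses, with 11 at an unadjusted p under 0.05, against 12.4% of all tested genes. The members and lists were compared with the spread of all genes in the plot of changes at 1.0 µM.

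**Figure D4:**
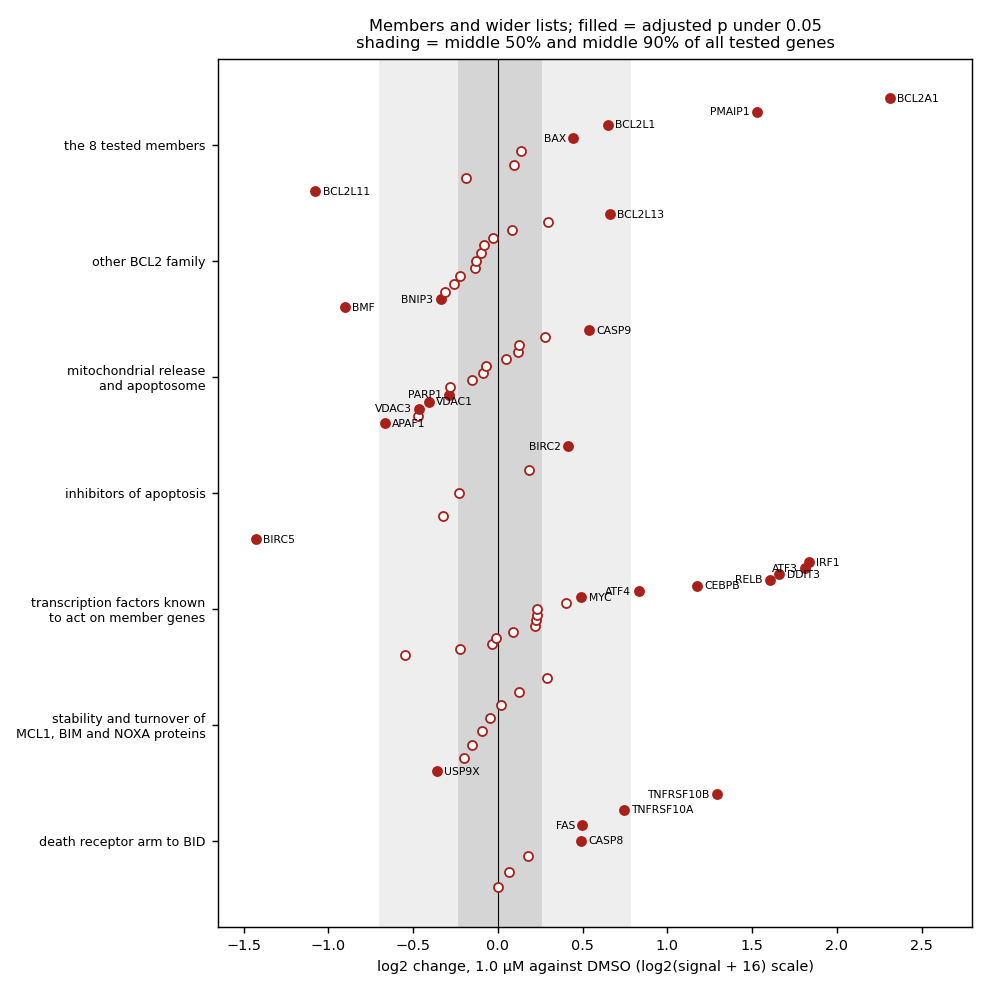
Log2 change at 1.0 µM against DMSO of the 8 tested members and of 6 lists of related genes, 1 point per gene, filled and named where the adjusted p was under 0.05; the shading covers the middle 50% and 90% of all 13948 tested genes. BCL2A1 and PMAIP1 lie right of the shading and BCL2L11 left of it, as do IRF1, ATF3, DDIT3, RELB, CEBPB, ATF4 and TNFRSF10B on the right and BIRC5 and BMF on the left.

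Among 17 tested transcription factors known to act on member genes, 7 rose at 1.0 µM and 0 fell, with a median of 0.23, and 6 rose at 0.1 µM. IRF1, an interferon-response factor, rose from a mean signal of 347 to 932 and 1275 over the doses, a log2 change of 1.83 ± 0.11 at 1.0 µM (limma adjusted p = 5.72e-07). DDIT3, which encodes the stress factor CHOP, rose by 1.66 ± 0.14 and ATF3, another stress-induced factor, by 1.81 ± 0.17. RELB, a subunit of the non-canonical NF-kB pathway, rose by 1.60 ± 0.17, while RELA (0.23 ± 0.18, adjusted p = 0.392) and NFKB1 (0.23 ± 0.11, 0.143), the canonical subunits, were not called. The other 3 that rose were CEBPB, ATF4 and MYC, and the first 2 of these rose at 0.1 µM as well. FOXO3 (0.22 ± 0.08, 0.0645) and FOXO1 (−0.22 ± 0.30, 0.657) were not called. All 7 calls at 1.0 µM were kept with each array left out; HIF1A became a rise without 1.0 µM replicate 2 and E2F1 a fall without 1.0 µM replicate 3.

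In the death receptor arm that leads to BID, 4 of 7 tested genes rose at 1.0 µM and 0 fell, with a median of 0.49. TNFRSF10B, the TRAIL receptor DR5, rose by 1.29 ± 0.11 (limma adjusted p = 8.59e-06), from a mean signal of 2467 to 4517 and 6033 over the doses. TNFRSF10A, the TRAIL receptor DR4, rose by 0.75 ± 0.16 (0.00554). The calls of CASP8 (0.49 ± 0.14, 0.0211) and FAS (0.50 ± 0.16, 0.0422) were lost without DMSO replicate 2 or 3 or 1.0 µM replicate 1 or 3, which left 2 of 7, and FAS was also lost without 0.1 µM replicate 3. At 0.1 µM TNFRSF10B (0.88 ± 0.11, 0.00034) and TNFRSF10A (0.64 ± 0.16, 0.0221) rose, and TNFRSF10A lost that call without DMSO replicate 1 or any of the 3 arrays at 0.1 µM, which left 1 of 7.

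Other BCL2 family genes showed 1 rise and 2 falls among 13 tested, with a median of −0.13. BCL2L13, a family member at the mitochondrial outer membrane, rose by 0.66 ± 0.08 (limma adjusted p = 0.000129). BMF, a BH3-only protein, fell by 0.90 on the log2 scale (SE 0.28, 0.0331) and BNIP3, a hypoxia-inducible mitophagy receptor, by 0.34 (SE 0.10, 0.0234). BMF lost its call without DMSO replicate 1 or 2 or 1.0 µM replicate 1 or 3, and BNIP3 without DMSO replicate 2 or 3 or the same arrays at 1.0 µM, so that 0 falls were left in the smallest case. At 0.1 µM BNIP3 fell (−0.44 ± 0.10, 0.01) and BCL2L13 rose (0.34 ± 0.08, 0.0196), a call lost without DMSO replicate 1 or 0.1 µM replicate 2 or 3. The falls at 0.1 µM came to 2 when BMF became a call without 1.0 µM replicate 2 or 3, or BNIP3L without DMSO replicate 3. At 1.0 µM they came to 3 without 1.0 µM replicate 2, where BAD became a call. BCL2 itself, with mean signals of 89.8, 64.6 and 83.4, was not called.

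Of 14 tested genes of mitochondrial release and the apoptosome, 1 rose and 4 fell at 1.0 µM, with a median of −0.12. CASP9, the initiator caspase of the apoptosome, rose by 0.54 ± 0.13 (limma adjusted p = 0.0107), and APAF1, its scaffold, fell by 0.67 (SE 0.21, 0.0383). The channels VDAC1 and VDAC3 fell by 0.41 and 0.47 and PARP1, a DNA repair enzyme that caspases cleave, by 0.29. The count of falls was 0 without 1.0 µM replicate 3, 1 without any of the DMSO replicates 1, 2 and 3 or without 0.1 µM replicate 3, and 2 without 0.1 µM replicate 1 or 1.0 µM replicate 1. It was 3 without 1.0 µM replicate 2 and 5 without 0.1 µM replicate 2, and ENDOG became a fall in both of these fits. At 0.1 µM CASP9 rose and APAF1 fell, and both calls were lost without DMSO replicate 1 or 3 or 0.1 µM replicate 1 or 3. CYCS, the gene of cytochrome c, was not called (0.045 ± 0.15, adjusted p = 0.871).

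Of 5 tested inhibitors of apoptosis, BIRC5 fell and BIRC2 rose, and XIAP was not called (0.18 ± 0.16, limma adjusted p = 0.461). BIRC5 encodes survivin, which is made mostly by dividing cells, and its mean signal fell from 2998 to 1384 and 1102 over the doses, by 1.43 on the log2 scale at 1.0 µM (SE 0.12, 7.23e-06). BIRC2, which encodes cIAP1, rose by 0.41 ± 0.10 (0.0111). Of 8 tested genes for the stability of the MCL1, BIM and NOXA proteins, the deubiquitinase USP9X fell by 0.36 (SE 0.12, 0.0426), and that call was kept in 1 of the 9 fits with an array left out, the one without 1.0 µM replicate 1. MAPK3 of the same list became a rise at both doses without DMSO replicate 3.

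Among all tested genes, those whose log2 signal followed a member most closely over the 9 arrays were sought for the 3 members with the smallest p-values at 1.0 µM. The correlation is a description over arrays that share their groups and scaling. MKI67 and BUB1B, known for dividing cells, lay closest to BCL2L11, with r = 0.9957 and 0.9937, followed by TCTN3 (0.9936). MKI67 had mean signals of 1206, 600.2 and 574 over the 3 groups, and BUB1B of 2511, 953 and 751. CLCN3 (0.995), CLIP4 (0.9949) and TM6SF1 (0.9945) lay closest to PMAIP1, and MICALL1 (0.9969), GCC1 (0.9964) and GFPT1 (0.9963) closest to BCL2A1.

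Among the epithelial markers, KRT7 rose by 1.06 ± 0.12 at 1.0 µM (limma adjusted p = 4.29e-05), KRT8 fell by 0.86 (SE 0.15, 0.00165) and KRT19 by 0.90 (SE 0.17, 0.00258). The summed signal of the 6 was 68678 to 96256 under DMSO, 60203 to 89574 at 0.1 µM and 51351 to 76432 at 1.0 µM. The 4 fibroblast markers summed to 4463 to 5111, 2498 to 3326 and 842 to 1260 in the same order. Most of this sum was COL1A1, with mean signals of 4342, 2478 and 870. COL1A1 and COL3A1, which encode fibrillar collagens, both fell. DCN, with means of 96.7, 99.2 and 124.8, was not called at 1.0 µM (0.35 ± 0.27, limma adjusted p = 0.417). LUM, with means of 21.9, 34.1 and 16.5, was under the filter. Endothelial markers (3 on the array, 1 above the filter) summed to 189 to 298, 196 to 216 and 221 to 243, and acinar and endocrine markers (4 on the array, 1 above the filter) to 51.5 to 135, 81.4 to 101 and 109.8 to 124. Prostate markers, looked at because the design text also names 22Rv1 cells, which were not analysed here, summed to 484 to 603, 348 to 514 and 466 to 622, and limma called 0 of the 2 on the array, with 1 at an unadjusted p under 0.05 at 0.1 µM. The part of these levels in the members' results was not tested.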

How the data were processed

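The authors labelled total RNA with biotin, hybridised it and deposited a linear intensity for each probe set, made with MAS5 (version not stated) per the submitters' processing notes. The deposited intensities were turned into log2(signal + 16) with no further normalization, which makes folds of dim genes smaller than their ratio of signals. Of 54675 probe sets, 62 controls were left out; 41091 had 1 gene symbol in the platform annotation, 41037 of them updated by Entrez identifier, 1801 named several genes and 11721 none. A filter at the 40th percentile of the mean level kept 32768 probe sets, and the brightest stood for each of 13948 genes (7020 had several). All 9 arrays were fitted in limma 3.58.1 (R 4.3.3, lmFit, eBayes with trend, 6 residual and 5.93 prior degrees of freedom), two-sided, with Benjamini-Hochberg adjustment over all genes, and a second fit covered all probe sets. The scripts were tested on simulated data. The number of arrays limits the precision.

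The members, gene lists, tests and alternatives were chosen with earlier results of these data known. Named genes are all members, the called genes with the 4 smallest p-values each way in each list at 1.0 µM, and the 3 most alike genes for 3 members. List genes named beyond this rule (RELA, NFKB1, CEBPB, ATF4, MYC, FOXO3, FOXO1, BCL2, CYCS, XIAP, HIF1A, E2F1, CASP10, BAD, BNIP3L, MAPK3, ENDOG) were named after their values were seen. The fit of differences between probe sets, the fit on the higher spike set alone, and the count of calls with an array left out for lists and probe sets were added after the data were seen. Promoters come from RefSeq (GRCh38.p14), with 8 of 10 members in the table used.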

Additional observations from a re-analysis of the deposited data

How the results depend on the processing

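BCL2A1, PMAIP1 and BCL2L11 kept their direction and their call against DMSO at both doses in all 26 alternatives: other added constants, filters, normalizations, probe set rules, limma settings, array weights, the replicate block, the spike set as a covariate or alone, a fold of at least 1.5, and each array left out. The call of BAX at 1.0 µM was lost in 15 of the 26 and that of BCL2L1 in 9. BID at 1.0 µM became a call with array weights (−0.31, limma adjusted p = 0.0231).

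Members called at 1.0 µM against DMSO (5) came to 3 with no filter, with median centring, with eBayes without trend, with only the arrays compared, with the replicate block and with the lower spike set alone, and to 3 to 5 with an array left out. At 0.1 µM (3) they came to 5 with only the arrays compared, 5 with array weights, and 3 to 5 with an array left out. Between the doses (0) they came to 2 with array weights, 2 with the spike covariate, and 0 to 2 with an array left out.

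Genes called at 1.0 µM (3240) came to 1788 with a fold of at least 1.5, and to 2343 to 3329 with an array left out. At 0.1 µM (1674) they came to 324 in the lower spike set, 924 with the fold, and 843 to 2003 with an array left out. Between the doses (114) they came to 67 with no filter, 65 with only the arrays compared, 23 without trend, 23 with the replicate block, 1953 with array weights, 256 with the spike covariate, 1 with the lower spike set alone, 304 with the higher spike set alone, and 11 to 186 with an array left out. Median centring gave 51 calls between the doses, 11 higher and 40 lower, where 54 were higher and 60 lower without it.

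Counted in probe sets instead, the calls against DMSO were 12 and 8 of the 26 member probe sets at 1.0 and 0.1 µM, at both doses from BCL2A1, BCL2L1, BCL2L11, MCL1 and PMAIP1, and 5772 and 2703 of all 32768. These are another unit than the counts of genes.

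The deviations of same-numbered arrays from their group means correlated at −0.34 to 0.22, with 1 of 9 over 0.1. With 3 arrays per group, and some same-numbered arrays in different spike sets, this cannot exclude that the replicate numbers pair the arrays. With the replicate block 2550 and 1137 genes were called against DMSO at 1.0 and 0.1 µM.

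Differences that turned sign were never called. Between the doses, BAX turned to −0.12 with array weights and −0.029 in the lower spike set, BCL2L1 to −0.23 with array weights and MCL1 to −0.042 with them. With an array left out, these differences ranged from −0.12 to 0.17 for BAX, −0.17 to 0.23 for BCL2L1 and −0.027 to 0.12 for MCL1, being negative without 1.0 µM replicate 2 and, for BCL2L1 (−0.032) and MCL1 (−0.0083), without 0.1 µM replicate 2. BID turned to 0.0058 with the spike covariate and 0.11 in the higher spike set, where BAK1 turned to 0.16. Against DMSO, BAK1 at 1.0 µM turned to −0.0071 in the lower spike set and ranged from −0.030 (without 1.0 µM replicate 2) to 0.18 with an array left out, and MCL1 at 0.1 µM to −0.083 in the lower spike set. The cause was not tested; the fits on 1 spike set also use fewer arrays. Signal limits BIK and the dimmer MCL1 and BCL2L11 probe sets.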
